A study of Mus musculus with 2 samples.

Results

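Genes that build ribosomes were lower in the airway epithelium of a fetal mouse lung late in gestation (E18.5, by embryonic day) than at the earlier E14.5, on 1 microarray without replicates. The genes described here are 40 factors of ribosome biogenesis and of RNA polymerase I. They were chosen with earlier results of these data known, and their probes were picked by name. A probe was taken where the gene name in the scanner output was a member's symbol or a former symbol of it, such as Nola1 for Gar1 or Nol5a for Nop56. All 40 were found, 10 of them under older names only, with 67 probes on 18 chromosomes, among 19748 named genes on the array. All 40 passed the detection filter, being well above background at both ages, as were 16322 named genes in all.

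Both samples were intralobular airway epithelium, cut with a laser from frozen sections of wild-type male CD-1 mouse lungs, with no treatment. CD-1 is an outbred strain. Each age was the epithelium of 1 whole lung. The E14.5 RNA was labelled with Cy3 (green) and the E18.5 RNA with Cy5 (red) after a single round of amplification, and both were hybridised to the same array in a search for effectors of the ciliogenesis factor FOXJ1. There was 1 sample per age and no dye swap, so dye and age cannot be told apart, no p-value was computed and differences are called by size alone, at 2-fold or more (a log2 ratio of 1).

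Ribosomes are assembled in the nucleolus. RNA polymerase I transcribes the long ribosomal RNA precursor, small nucleolar ribonucleoproteins (snoRNPs) guide its methylation and pseudouridylation, and processing complexes cut it and fold it with ribosomal proteins into the 40S and 60S subunits. The demand for new ribosomes is known to follow cell growth, and the MYC transcription factors are textbook activators of these genes.

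Promoter sequences from RefSeq (build GRCm38.p6) were at hand for 34 of the 40 genes, from 250 bases before to 50 bases after each start, and were searched for CACGTG, the E-box that MYC and MAX can bind. The motif reads the same on both strands, and no other motif was searched. The windows below show the factor with more than 1 match (Rrn3), the 2-fold lower gene with a match (Wdr43), another gene with a match (Nop2), and those of 2 genes among the lowest ratios, Gar1 and Nop56, which held none. Capitals mark CACGTG.
Rrn3, chr16:13780449-13780748, plus strand: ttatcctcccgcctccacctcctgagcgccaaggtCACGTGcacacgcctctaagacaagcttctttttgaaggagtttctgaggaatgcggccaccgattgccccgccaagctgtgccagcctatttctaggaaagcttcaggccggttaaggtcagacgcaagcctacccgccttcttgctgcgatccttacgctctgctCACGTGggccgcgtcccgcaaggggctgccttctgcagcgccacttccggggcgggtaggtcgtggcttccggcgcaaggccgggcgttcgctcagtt
Wdr43, chr17:71615965-71616264, plus strand: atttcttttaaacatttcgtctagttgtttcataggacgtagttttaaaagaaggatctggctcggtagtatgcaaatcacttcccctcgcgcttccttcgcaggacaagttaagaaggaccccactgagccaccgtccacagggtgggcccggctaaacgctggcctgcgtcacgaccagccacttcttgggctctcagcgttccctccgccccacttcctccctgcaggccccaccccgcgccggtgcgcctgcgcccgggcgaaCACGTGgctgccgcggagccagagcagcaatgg
Nop2, chr6:125131633-125131932, plus strand: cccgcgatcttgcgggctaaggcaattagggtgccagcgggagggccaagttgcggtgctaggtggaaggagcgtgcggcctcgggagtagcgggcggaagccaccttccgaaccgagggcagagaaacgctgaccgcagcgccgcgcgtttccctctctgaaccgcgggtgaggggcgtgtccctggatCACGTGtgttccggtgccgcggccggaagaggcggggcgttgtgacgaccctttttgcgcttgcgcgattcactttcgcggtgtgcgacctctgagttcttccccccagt
Gar1, chr3:129831347-129831646, minus strand: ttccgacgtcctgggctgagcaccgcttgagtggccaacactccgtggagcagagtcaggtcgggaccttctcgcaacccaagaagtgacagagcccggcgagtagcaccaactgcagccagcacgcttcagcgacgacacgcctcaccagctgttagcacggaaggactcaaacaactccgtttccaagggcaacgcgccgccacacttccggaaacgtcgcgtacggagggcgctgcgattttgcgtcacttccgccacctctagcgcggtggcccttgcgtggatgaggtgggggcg
Nop56, chr2:130274162-130274461, plus strand: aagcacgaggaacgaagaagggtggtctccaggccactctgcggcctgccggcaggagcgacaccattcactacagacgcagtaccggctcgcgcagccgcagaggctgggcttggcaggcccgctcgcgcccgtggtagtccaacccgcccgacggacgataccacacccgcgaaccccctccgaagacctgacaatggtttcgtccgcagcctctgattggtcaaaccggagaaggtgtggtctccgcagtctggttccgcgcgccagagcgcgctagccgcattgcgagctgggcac

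CACGTG was present for 5 of the 34 genes (14.7%), beside 10.7% of the 12510 genes measured on the array that had a promoter sequence and 8.1% of all 27025 genes with one. Rrn3 held 2 copies, at 215 and 48 bases before the start. Imp4 and Nop2 held 1 each, at 121 and 60 bases before it, and Pes1 and Wdr43 1 each, at 2 and 17 bases after it. By size of change, 1 of 15 genes called 2-fold lower (6.7%) and 4 of 19 within 2-fold (21.1%) had the motif. The median log2 ratio was -0.36 for the 5 genes with the motif and -0.996 for the 29 without. In these windows the motif was not more frequent among the genes called 2-fold lower, but the counts are small. The part of MYC in these ratios was not tested. Of 103 genes of further ribosome biogenesis lists with a promoter sequence, 20.4% held it, beside 10.3% of ribosomal protein genes.

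Each gene was read by 60-base probes. Probe sequences are shown for 3 genes whose used probe crosses a gap in the genome, as an exon junction does, and keeps a reading frame open from end to end: Ncl and Heatr1, both 2-fold lower or more, and Polr1c, the member with the highest ratio. On build mm8, named in the file headers, the ends of these probes lie at chr1:88182198-88182588 (minus strand), chr13:12492219-12492924 (plus strand) and chr17:45707752-45707896 (minus strand). An exon annotation of that build was not used here.
Ncl probe: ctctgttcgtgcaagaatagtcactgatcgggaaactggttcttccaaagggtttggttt
Heatr1 probe: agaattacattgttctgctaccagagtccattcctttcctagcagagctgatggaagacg
Polr1c probe: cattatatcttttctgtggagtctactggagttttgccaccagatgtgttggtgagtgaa

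Of the 40 genes, 17 (42.5%) were at least 2-fold lower at E18.5, beside 10.6% of all 16322 genes measured. None of the 40 (0) was at least 2-fold higher, beside 17.6% of all genes, and 23 lay within 2-fold. The log2 ratios, E18.5 over E14.5, ran from -2.01 for Gar1 to 0.41 for Polr1c, with a median of -0.83, and the median over all genes was 0.05. Below 0 were 38 of the 40, beside 47.0% of all genes, and 26 were at least 1.5-fold lower, beside 20.0% of all genes. The 40 genes varied among themselves with an SD of 0.55, around a mean of -0.84. The smallest differences that still counted as 2-fold were those of Npm3 (-1.01) and Wdr43 (-1.02), while Mphosph10 (-0.996, 1.99-fold lower) lay just outside.

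Only technical error can be estimated for these ratios. The scanner software's error estimate, from the authors' deposited scanner output, was between 0.21 and 0.29 on the log2 scale for the probes used. Over the whole array, repeated spots of a probe had a median SD of 0.05 (245 probes), and different probes of a gene had a median SD of 0.33 (6892 genes). For the 19 members with several measured probes, the median range between probes was 0.43. None of these spreads includes differences between animals or dissections.

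**Figure D1:**
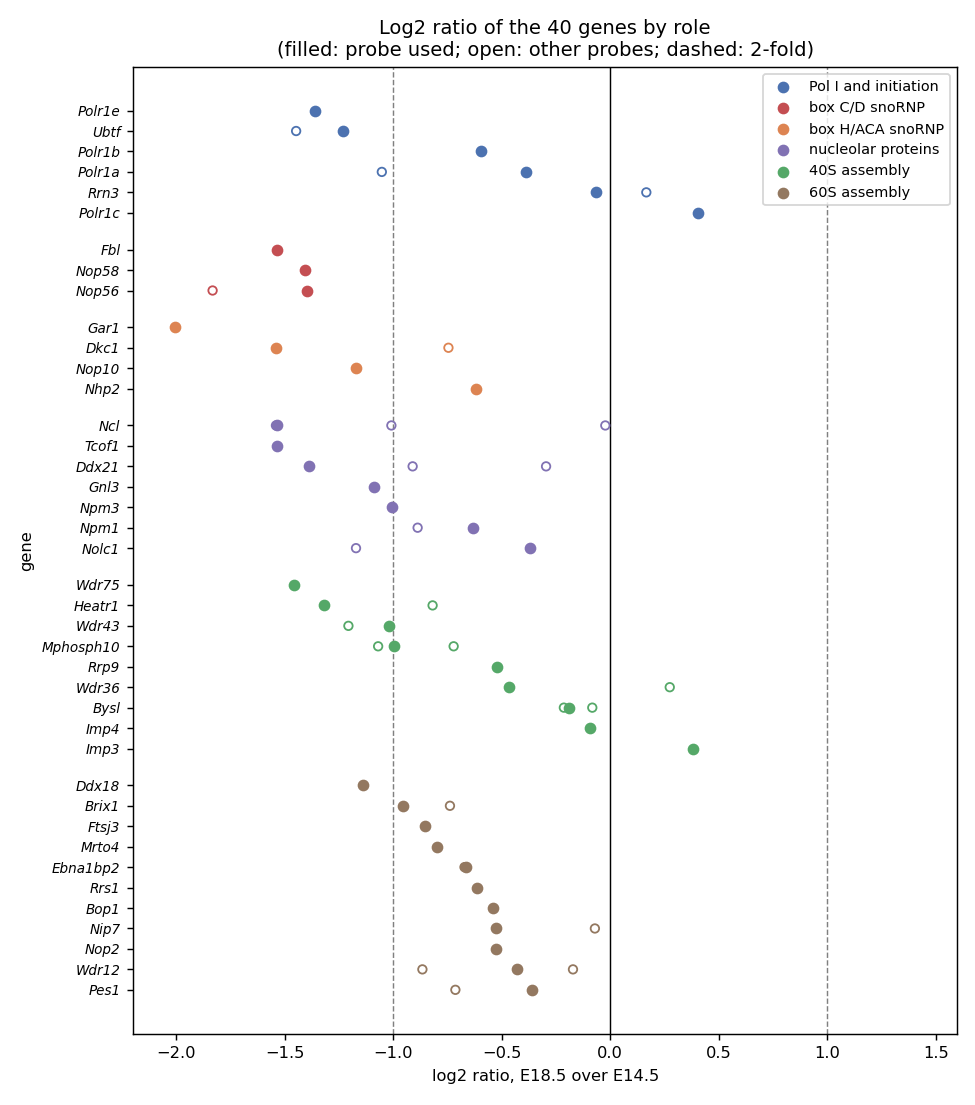
Log2 ratio of each of the 40 genes, E18.5 over E14.5, grouped by role, with filled points for the probe used and open points for other probes measured at both ages. By the probe used, the box C/D genes lie between -1.54 and -1.40, the 60S factors between -1.14 and -0.36, and Imp3 and Polr1c are the genes to the right of 0.

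The core proteins of the snoRNPs were the lowest of the 6 roles. In the box C/D particles, which methylate ribosomal RNA, 3 of 3 members were at least 2-fold lower, with a median of -1.41. Fbl, which encodes the methyltransferase fibrillarin, had a normalized signal of 67845 at E14.5 and 23380 at E18.5, a log2 ratio of -1.54 (2.90-fold lower). Nop56, a scaffold protein of the same particle, went from 28541 to 10816 (-1.40, 2.64-fold lower), and its dimmer second probe gave -1.83. Nop58, the paralogous scaffold, went from 26526 to 10004 (-1.41, 2.65-fold lower). By the probes used, the 3 genes lay within 0.14 of each other, beside a median range of 0.43 between the probes of a member. The second probe of Nop56 (-1.83) lay outside that 0.14.

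In the box H/ACA particles, which convert uridine to pseudouridine, 3 of 4 members were at least 2-fold lower, with a median of -1.36. Gar1 had the lowest ratio of the 40 genes, with signals of 3928 at E14.5 and 978 at E18.5 (-2.01, 4.02-fold lower), and 2.25% of all genes had a lower ratio. Its probe lies at chr3:129821362-129821421 on mm8 (minus strand). Dkc1, the pseudouridine synthase dyskerin, went from 3001 to 1032 (-1.54, 2.91-fold lower), though its other probe gave -0.75. Nop10, the smallest core protein, went from 48969 to 21728 (-1.17). Nhp2, the RNA-binding core protein, was within 2-fold at -0.62 (18975 and 12376). The ratios of these members therefore spread over more than those of the box C/D members.

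Among 7 abundant or regulatory nucleolar proteins, 5 were at least 2-fold lower and the median was -1.09. Ncl, which encodes nucleolin, a histone and RNA chaperone of the nucleolus, had signals of 96997 at E14.5 and 33424 at E18.5 (-1.54, 2.90-fold lower). Its 4 probes disagreed. The next brightest, at chr1:88182549-88182608 on mm8, gave -1.54 too, but it overlaps the used probe and is not a separate reading. A dimmer one gave -1.01, and the dimmest, at chr1:88176112-88176171, gave -0.02. Tcof1, the treacle protein that links polymerase I transcription to RNA modification, went from 5099 to 1757 (-1.54). Ddx21, an RNA helicase of the nucleolus, went from 6528 to 2497 (-1.39), with its dimmer probes at -0.91 and -0.30. Gnl3, the GTPase nucleostemin, which is known from stem and progenitor cells, went from 5056 to 2378 (-1.09).

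The nucleophosmin genes were nearer to 0. Npm3 went from 35781 to 17809 (-1.01, 2.01-fold lower). Npm1, an abundant chaperone that shuttles between nucleolus and cytoplasm, had signals of 94725 and 61092 (-0.63), with its second probe at -0.89. A 60-base probe for Npm1 can also bind transcripts of near-identical copies, so its value may mix several sources. Nolc1, a chaperone of the snoRNPs, was at -0.37 by the brighter probe and -1.17 by the other, and its call therefore depends on the probe.

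The RNA polymerase I genes did not share one ratio. Of 6 members, 2 were at least 2-fold lower, 4 lay within 2-fold, and the median was -0.49. Polr1e, a subunit of polymerase I that is not in the other polymerases, had signals of 1989 at E14.5 and 774 at E18.5 (-1.36, 2.57-fold lower). Ubtf, the upstream binding factor that keeps ribosomal DNA open for transcription, went from 8314 to 3544 (-1.23), and its second probe gave -1.45. The catalytic core subunits were nearer to 0: Polr1a at -0.39 (8109 and 6202, other probe -1.05) and Polr1b at -0.60 (2879 and 1902). Rrn3, the initiation factor that makes the polymerase competent to start, was level at 8140 and 7778 (-0.07), and its dim second probe gave 0.17. Polr1c, which polymerase I shares with polymerase III, was the highest of the 40 genes, at 27675 and 36669 (0.41, 1.33-fold higher).

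Other polymerase I genes came from a list drawn up beside the members. Of 11 listed, 8 were matched on the array. Of these, 2 (25.0%) were at least 2-fold lower and 1 at least 2-fold higher, beside 10.6% and 17.6% of all genes. Their median of -0.21 turned to 0.03 when the median over probes was used, whereas that of the 6 members was -0.66 in that setting. Taf1d, a subunit of the selectivity factor SL1, was at -1.66 (10458 and 3309), with other probes between -1.01 and -0.88, while Taf1a, of the same factor, was at 1.03, with its other probe at 0.26. Mybbp1a, a nucleolar MYB-binding protein, was at -1.12, Polr1d, shared with polymerase III, at -0.41, Taf1c at -0.23 and Taf1b at 0.29. Baz2a, a subunit of the complex that silences ribosomal DNA, was at -0.18, with other probes from -0.39 to 1.70, and the termination factor Ttf1 was at 0.48 and 1.07 by its 2 probes.

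Of the 9 members that process the 40S precursor, 3 were at least 2-fold lower and the median was -0.52. Wdr75 had signals of 8412 at E14.5 and 3065 at E18.5 (-1.46, 2.75-fold lower). Heatr1 went from 8459 to 3385 (-1.32, second probe -0.82, and another probe not well above background at either age), and Wdr43 from 14310 to 7059 (-1.02, second probe -1.21). These 3 belong to the complex that couples transcription of the precursor to its early processing. The U3 particle protein Rrp9 was at -0.52, Wdr36 at -0.47 with its second probe at 0.27, and Bysl, a late 40S assembly factor, at -0.19 by the brightest of 3 probes that agreed within 0.13.

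Imp3, Imp4 and Mphosph10, which bind each other in the small subunit processome, had unlike ratios. Mphosph10 went from 4425 to 2219 (-0.996), with other probes at -1.07 and -0.72. Imp4 was dim at both ages, with signals of 251 and 236 (-0.09). Imp3 was higher at E18.5, with signals of 15888 and 20706 (0.38, 1.30-fold higher). The gap between Imp3 and Mphosph10 was larger than the typical spread between probes, but Imp3 and Imp4 had 1 probe each.

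The 11 factors of 60S assembly all lay below 0, between -1.14 and -0.36, with a median of -0.61. Only 1 of the 11 (9.1%) was at least 2-fold lower, no more than the 10.6% of all genes. Ddx18, an RNA helicase, was the one beyond 2-fold, with signals of 13489 at E14.5 and 6131 at E18.5 (-1.14, 2.20-fold lower). Brix1 (-0.95, second probe -0.74), Ftsj3, a methyltransferase (-0.86), and Mrto4 (-0.80) followed. Ebna1bp2 was at -0.67 by both of its probes, Rrs1 at -0.61, Nip7 at -0.53 with a dim second probe at -0.07, and the methyltransferase Nop2 at -0.53. Pes1, Bop1 and Wdr12, which together form the PeBoW complex, were at -0.36, -0.54 and -0.43. Pes1 had a second probe at -0.71, and Wdr12 had others at -0.87 and -0.17, so that the 3 subunits were not apart by more than their own probes.

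**Figure D2:**
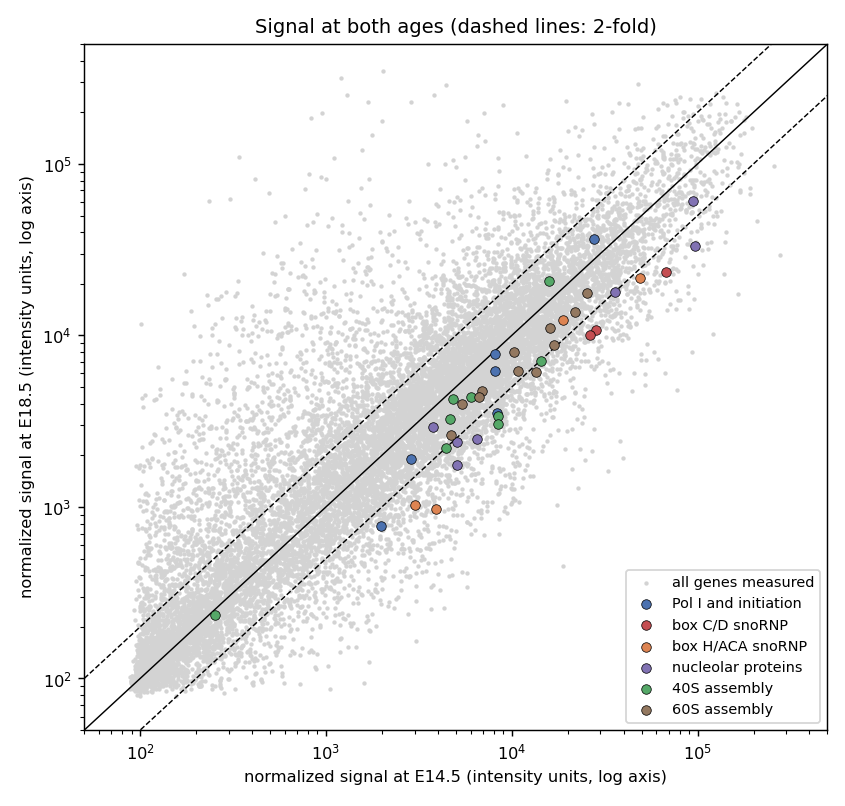
Normalized signal at E14.5 (horizontal) and E18.5 (vertical), both in intensity units on log axes, for all 16322 genes measured (grey) and the 40 genes by role (coloured), with the diagonal and 2-fold lines. The 17 genes at or below the lower dashed line include all 3 box C/D members, and Imp4, at 251 and 236, is the dim point at the lower left.

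The members lay between 7.93 and 16.22 in average log2 intensity, but Imp4 alone set the low end and the next dimmest was Polr1e at 10.28. Among 13054 other genes between the average intensities of the dimmest and the brightest member, 12.2% were at least 2-fold lower and the median log2 ratio was 0.08, both close to the values over all genes. Between 11.89 and 14.01, 7 of 20 members were at least 2-fold lower, beside 10.4% of 4544 other genes. Among the 10 brightest members, 5 were at least 2-fold lower, beside 12.3% of the 1999 other genes in that range. When the ratios were only centred on their median instead of normalized by intensity, 3 of the 10 were, beside 9.2% of all genes. That share is not limited to bright genes. The 1999 other genes in the bright range then had a median of 0.31, beside 0.13 for all genes.

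Further genes of ribosome biogenesis, listed by role beside the members, were lower to a lesser degree. Of 118 measured, 22 (18.6%) were at least 2-fold lower, beside 10.6% of all genes. Another 2 were at least 2-fold higher, beside 17.6% of all genes, and 94 lay within 2-fold. Their median was -0.40, and 93 of them lay below 0. Among 44 other 40S factors, 8 (18.2%) were lower and 0 higher, with a median of -0.50. They ran from Rcl1 (-1.41, second probe -1.22), a processing factor of the 40S precursor, to Rrp36 at 0.52. Among 44 other 60S factors, 6 (13.6%) were lower, near the 10.6% of all genes, and 0 higher, with a median of -0.38. The extremes were Nvl, an ATPase (-1.70, but dim at E18.5 with a signal of 137 and at -0.46 by its other probe), and Nsa2 (0.79, other probe -0.20). Of 13 genes of the nuclear RNA exosome, which trims the precursor, 4 (30.8%) were lower and 0 higher, with a median of -0.48. Exosc8 was the lowest at -1.79 (15929 and 4608, second probe -1.29) and Exosc5 the highest at 0.43 (other probe -0.11).

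The list of snoRNP assembly factors had a higher median than the core proteins among the members. Of 9 measured, 2 (22.2%) were at least 2-fold lower and 1 higher, beside 10.6% and 17.6% of all genes. Their median was 0.33, beside -1.41 and -1.36 for the core proteins among the members. This list also held Snu13, itself a core protein of the box C/D particle, which went from 43802 to 24378 (-0.85, other probe -0.75). Znhit6, an assembly factor of the box C/D particle, was at -1.12 with its second probe at -0.91. At the other end was Rpap3, a subunit of the R2TP chaperone complex, which also serves the assembly of axonemal dyneins, at 1.17.

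The ribosomal proteins themselves did not follow their assembly factors. Of 78 cytosolic ribosomal protein genes, 0 were at least 2-fold lower, 19 at least 2-fold higher and 59 within 2-fold, and the median was 0.50 (0.42 with the scanner software's ratio and 1.05 with median centring). The 60S proteins had a median of 0.57 and ran from Rpl22 (-0.59) to Rplp0 (1.81, with other probes between 0.44 and 2.48). The 40S proteins had a median of 0.35 and ran from Rps19 (-0.66, other probe 0.82) to Rps3 (1.89, other probe 0.06). Ribosomal protein genes have many processed copies, to which such probes can also bind. The 45 other genes of like brightness (between the quartiles of the ribosomal proteins) had a median of 0.07 after loess and 0.60 with median centring. Translation initiation and elongation factors had a median of -0.03, which turned positive (0.18) with median centring, and went both ways, from Eif3a (-1.12, other probe 0.79) to Eif2b2 (1.81).

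**Figure D3:**
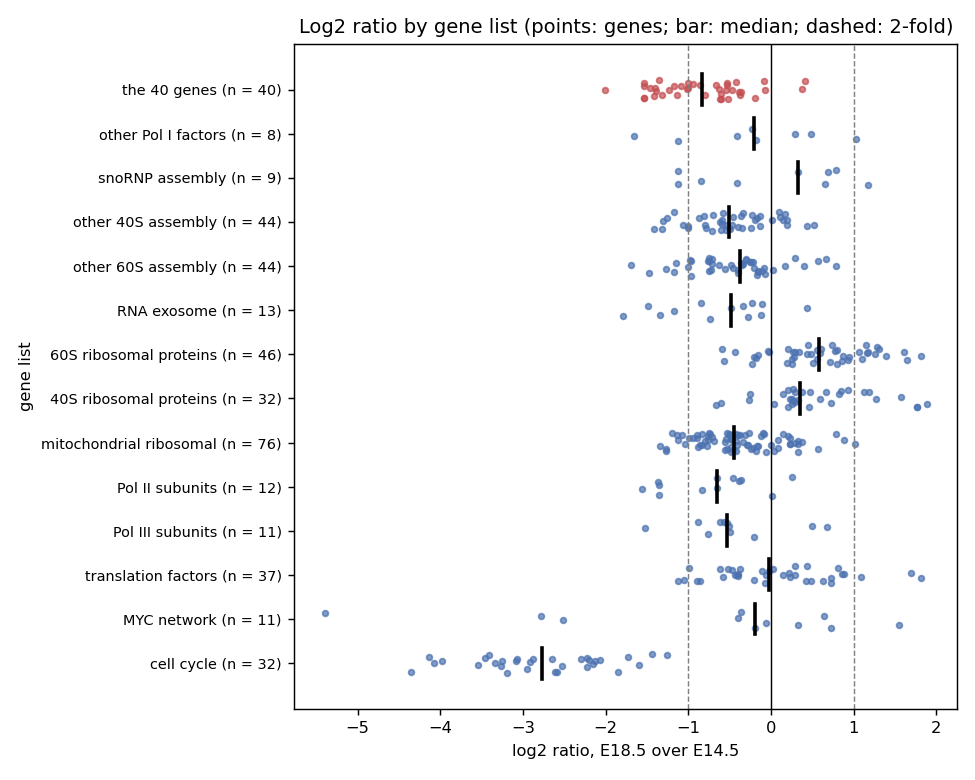
Log2 ratio of each gene, E18.5 over E14.5, for the 40 genes and 13 other gene lists, with a black bar at each median. The 40 genes (median -0.83) lie to the left of 0, the 2 lists of cytosolic ribosomal proteins (0.57 and 0.35) to the right, and the cell cycle genes (-2.77) farthest left.

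Mitochondrial ribosomal proteins, with 76 measured, had a median of -0.45, from Mrpl13 (-1.34) to Mrps17 (1.02, other probe 0.28). Of these, 8 (10.5%) were at least 2-fold lower, no more than the 10.6% of all genes, and 1 was at least 2-fold higher, beside 17.6% of all genes. RNA polymerase II had a median of -0.65 over 12 subunits, with 4 (33.3%) at least 2-fold lower, from Polr2l (-1.56) to Polr2e (0.25, other probes at -0.08 and -0.06). RNA polymerase III had a median of -0.53 over 11, with 1 (9.1%) at least 2-fold lower, no more than the 10.6% of all genes, from Polr3k (-1.52, other probes at -0.24 and -0.19) to Polr3gl (0.68). No difference between the polymerases was tested.

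Of the 3 MYC family genes, Mycn and Myc were more than 2-fold lower at E18.5 and Mycl was not. Mycn, the family member of the branching lung epithelium, had signals of 18963 at E14.5 and 450 at E18.5 (-5.40 by the brighter probe and -2.18 by the other). Myc went from 3195 to 558 (-2.52, 5.72-fold lower), with other probes between -2.23 and -1.35. Mycl went from 8312 to 6316 (-0.40, 1.32-fold lower). Their shared partner Max was at -0.36. Among the MAX-binding antagonists, Mxd3 was at -2.78 (other probe -1.75), Mxd1 at -0.19 (other probe 0.07), Mnt at -0.06, Mxd4 at 0.64 (other probes at -0.74 and 0.48), Mxi1 at 0.72 and Mga at 1.55 (other probe 0.75, and dim at E14.5 with a signal of 657).

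Markers of proliferation moved with the ribosome biogenesis genes, and further. All 32 cell cycle genes of the list were at least 2-fold lower, with a median of -2.77, from Uhrf1 (-4.35) to Cdc20 (-1.26). Their summed signal went from 1119556 to 192897 with age, whereas that of the 40 genes was 708785 and 394981. Mki67, which encodes the proliferation marker Ki-67, was 11.6-fold lower (-3.54, other probe -3.71). The part of cell proliferation in the ratios of the 40 genes was not tested. In these bulk samples, fewer cells of a type and less RNA per cell cannot be told apart.

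Markers of several cell types differed in signal between the samples. All 13 epithelial markers were measured at both ages, with 1 at least 2-fold lower, 5 at least 2-fold higher and a median of 0.37, and their signals summed to 396498 in the younger and 642856 in the older sample. All 7 markers of secretory airway cells (summed signals of 36432 and 1573433) and 10 of 11 of multiciliated cells (19056 and 221374) were higher at E18.5 by 2-fold or more. Markers from outside the epithelium were present too. Of 14 mesenchyme and smooth muscle genes, 5 were at least 2-fold lower and 0 higher, with a median of -0.40 and summed signals of 578312 and 491346. Of 9 endothelial genes, 0 were lower and 4 higher, with a median of 0.90 and sums of 19675 and 112256. Of 10 leukocyte genes measured at both ages, 0 were lower and 8 higher, with a median of 2.87. Itgam was well above background at 1 age only, and the sums over all 11 leukocyte genes were 5913 and 166782. The 9 erythroid genes went both ways, with 4 lower, 3 higher and a median of -0.44. Their sums of 131121 and 524874 were carried by the globin genes Hba-a1 (42355 and 223583) and Hbb-bt (48003 and 291830), while the embryonic globin Hbb-y was at -4.35. No marker on these lists was below background at both ages. The part of these cell types in the ratios of the 40 genes was not tested.

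Within this set, the ratio depended on the probe for some members. Of the 19 members with several measured probes, 3 (Nop56, Ubtf and Wdr43) were at least 2-fold lower by every one, 7 (Ddx21, Dkc1, Heatr1, Mphosph10, Ncl, Nolc1 and Polr1a) had probes on both sides of the 2-fold line, and 2 (Rrn3 and Wdr36) had probes on both sides of 0. Over all 65 member probes measured at both ages, 61 lay below 0. With the median over probes in place of the brightest probe, 16 of the 40 genes were at least 2-fold lower, the call of Ddx21 being lost. By the scanner software's ratio, Dkc1, Heatr1 and Mphosph10 were at least 2-fold lower by every measured probe. Their probes nearest to 0 gave -1.05, -1.18 and -1.13. In that setting Brix1 (-1.09 and -0.94) and Wdr12 (from -1.17 to -0.45) had probes on both sides of the 2-fold line.

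**Figure D4:**
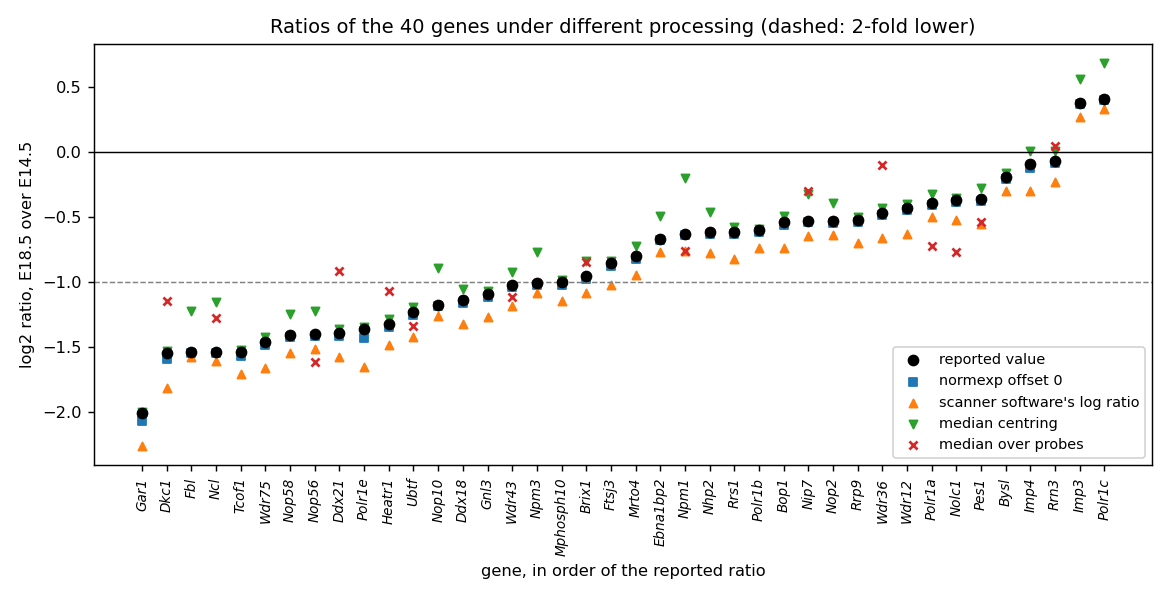
Log2 ratio of the 40 genes, ordered by the reported value (black), under 4 other ways of processing. The scanner software's ratios lie below the reported ones, those with median centring above, and the order from Gar1 (-2.01) to Polr1c (0.41) has the same ends in each.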

How the data were processed

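One two-colour oligonucleotide array was analysed, with E14.5 RNA in green and E18.5 RNA in red, 1 sample per age. The deposited scanner outputs of the 2 samples were identical in 116 of 116 columns and were read as 1 array. They hold mean spot intensities and median local background intensities, linear and uncorrected, made with Agilent Feature Extraction 9.5.3.1, per the file headers. The same deposited files also hold that software's background-subtracted, dye-normalized intensities and their log10 ratio (red to green), with an error of that ratio, and 0 or 1 flags for outliers, saturation and signal well above background. These log10 values were turned to log2. The authors' value table holds linear intensities: each column was the processed intensity times 0.339, with a floor of 15, not centred, with column medians of 129.1 for the younger and 130.2 for the older sample. No reason for the constant was found in the sources used here.

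Mean intensities were background-corrected by normexp (offset 50), then loess was applied with a span of 0.3 and 4 iterations (limma 3.58.1, R 4.3.3), a step that would hide a shift common to most genes. The offset pulls ratios of dim genes towards 0. Of 43379 probe spots, 160 outliers were left out and 0 were saturated. Repeated spots were averaged. Probes were named through RefSeq of GRCm38.p6 by accession, symbol or older symbol (33099 of 41170 probes), and each gene was read by its brightest probe well above background at 1 age or more. A further 998 genes whose probe was above background at 1 age only were not counted. In place of depth, 75.2% of probes in green and 78.7% in red were flagged well above background, and the number of arrays, 1, limits the precision. The steps were tested on simulated data with 200 changed probes. Python 3.11.15, numpy 2.4.6, pandas 2.3.3 and matplotlib 3.10.9 were used.

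The members and lists were chosen with earlier results of these data known. Named are all members, the polymerase I list, Myc, Mycn and Mki67, and the highest and lowest gene of other lists. Snu13, Mycl, Max, Mxd1, Mxd3, Mxd4, Mxi1, Mnt, Itgam, Hba-a1, Hbb-bt and Hbb-y were named after their values were seen. Alternatives were another offset, the scanner software's ratio, median centring, a filter on dim probes, the median over probes, the value table and a 1.5-fold rule.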

Additional observations from a re-analysis of the deposited data

How the results depend on the processing

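The count of members at least 2-fold lower was 17 in the reported setting, 18 without an offset, 20 with the scanner software's ratio or with the authors' value table, 14 with median centring, 17 with signals of at least 200 at both ages and 16 with the median over probes. All 17 reported members kept their call except Nop10, Npm3 and Wdr43 under median centring and Ddx21 with the median over probes, and the genes added were Mphosph10 and, with the scanner software's ratio or the value table, Brix1 and Ftsj3. The median of the members was between -0.98 and -0.75. Relative to the median of all genes, which moved between -0.08 and 0.13, it was between -0.92 and -0.85. No member was 2-fold higher in any of these settings (0 of 40). The share of all genes at least 2-fold lower was 10.6% in the reported setting, 15.6% with the scanner software's ratio and 8.9% with the median over probes. With a size rule of 1.5-fold, 26 members and 3263 of all genes (20.0%) were lower and 4449 of all genes higher. Under median centring the medians of the 60S and 40S ribosomal proteins moved to 1.11 and 0.86, and Imp4 and Rrn3 turned from just below 0 to 0.01. No paired analysis was possible because there was 1 sample per age, and no replicate could be left out for the same reason. The dimmest member, Imp4, had the least signal over background to show a difference.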

Other observations

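Among the 19 members with several measured probes, the brightest probe had the lowest ratio in 7. For Ddx21 the 3 probes gave -1.39, -0.91 and -0.30 in order of falling signal at E14.5 (6528, 591 and 115), and for Heatr1 the 2 measured probes gave -1.32 and -0.82 (8459 and 282). Mphosph10 did not follow that order, with -0.996, -1.07 and -0.72 at signals of 4425, 721 and 374. Nolc1 and Polr1a also went the other way, with the dimmer probe lower, at -1.17 and -1.05. The offset used here pulls ratios of dim probes towards 0. By the scanner software's ratio, the Ddx21 probes gave -1.57, -1.33 and -0.80 in the same order. Those of Heatr1 gave -1.485 and -1.18.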
